A study of Mus musculus with 14 samples.

Results

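The genes described here were 10 genes of platelet-derived growth factor (PDGF) signalling and of the lipofibroblast, followed in mouse lung from embryonic day 12 (E12) to postnatal day 30 (Adult). They were the ligand genes Pdgfa, Pdgfb, Pdgfc and Pdgfd, the receptor genes Pdgfra and Pdgfrb, and the lipid genes Plin2, Pparg, Lpl and Fabp4. They were chosen by gene symbol in the platform annotation, which held all 10 of them among 18193 genes. The 10 genes had 22 probe sets, and each gene was represented by its probe set of highest mean level over the 14 arrays.

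RNA from pooled whole lungs of untreated ICR mice had been measured on 14 Affymetrix whole-genome mouse arrays, 2 for each of 7 time points, namely E12, E14, E16, E18, postnatal days 2 and 10 (P2, P10) and Adult. The labels give the sex of every sample as female, and the day of the plug was counted as day 0. The sources do not give the number of lungs per pool, nor say if the 2 arrays of an age came from different pools, so p-values may measure technical spread alone. Whole lung holds many cell types, and a change in the number of cells of a type cannot be told apart from a change in RNA per cell.

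PDGF ligands are secreted dimers that bind receptor tyrosine kinases on mesenchymal cells. PDGF-A, made by epithelium, signals through PDGFRα to the precursors of alveolar myofibroblasts, whereas PDGF-B, made by endothelium, signals through PDGFRβ to pericytes. Lipofibroblasts are lipid-laden interstitial cells of the alveolar wall that store neutral lipid in droplets and express PDGFRα. PPARγ, encoded by Pparg, is their best-known transcription factor and also drives fat cells and alveolar macrophages.

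PPARγ binds DNA as a dimer with RXR at repeats of the hexamer AGGTCA, so promoter windows were searched for it on both strands. RefSeq windows (GRCm38.p6) of 300 bases, from 250 before to 50 after a start site, were found for 6 of the 10 genes, 9 windows in all. The hexamer was in 3 of the 9, all of them windows of Plin2 or Pparg, against 16.3% of 32851 windows of the same length. Single copies were counted rather than repeats, and windows of the same gene were counted separately. The 250 bases before the start site are shown for these 3, since Plin2 and Pparg both rose between E14 and E16. Capitals mark the hexamer, which on the other strand reads TGACCT.
Plin2, chr4:86670060-86670309, minus strand: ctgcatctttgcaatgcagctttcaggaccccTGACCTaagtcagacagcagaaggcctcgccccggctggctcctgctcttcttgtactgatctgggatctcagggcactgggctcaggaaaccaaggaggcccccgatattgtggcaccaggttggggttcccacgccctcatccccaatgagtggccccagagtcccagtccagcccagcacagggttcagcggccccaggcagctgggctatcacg
Pparg, first window, chr6:115360894-115361143, plus strand: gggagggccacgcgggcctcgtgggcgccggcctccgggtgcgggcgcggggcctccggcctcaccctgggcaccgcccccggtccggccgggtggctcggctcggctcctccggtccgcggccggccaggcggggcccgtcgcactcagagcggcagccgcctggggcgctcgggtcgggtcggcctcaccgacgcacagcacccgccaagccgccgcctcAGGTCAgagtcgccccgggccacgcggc
Pparg, next window, chr6:115362099-115362348, plus strand: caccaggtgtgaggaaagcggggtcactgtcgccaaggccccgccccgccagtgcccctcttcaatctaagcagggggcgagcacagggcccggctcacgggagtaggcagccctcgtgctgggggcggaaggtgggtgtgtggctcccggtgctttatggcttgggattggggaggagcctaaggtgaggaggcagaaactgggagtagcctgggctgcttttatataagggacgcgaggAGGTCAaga
A hexamer match describes the letters of the window and was not tested as a binding site.

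Values are log2 array values, and differences between time points are log2 differences estimated with limma over all 14 arrays, given with their standard error (SE) and a p adjusted by Benjamini-Hochberg over 45037 probe sets. The array medians lay between 6.55 and 6.63, and the lower quartile of all values was 4.90. Replicate arrays correlated at 0.9953 to 0.9977. Sftpc, which encodes surfactant protein C, was at 10.88 at E12 and 14.81 in Adult, while the mesenchymal transcription factor gene Tcf21 was at 11.67 at E12, so markers of lung were present from the first time point. The E16 replicates differed in heart muscle genes, with a mean of 11.07 over 8 heart markers in replicate 1 and 8.35 in replicate 2. The ventricular myosin light chain gene Myl2 was at 12.63 and 8.84 there and at or below 6.27 on all arrays of other time points. The gap was not limited to heart genes, since the lung fibroblast marker Inmt was at 9.10 and 6.69 at E16. The means over 12 lung fibroblast markers were 11.06 and 10.85. For the PDGF and lipofibroblast genes described here, results that touch E16 are therefore given with and without its replicates where that changes them. For all other genes and for the marker lists, steps that touch E16 are given with all arrays only. Whether those steps hold without an E16 replicate was not tested.

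Every member changed over the time course. In the moderated F test across the 7 time points, 10 of 10 passed at an adjusted p under 0.05, as did 67.5% of all probe sets. With the thresholds on the highest time-point mean (above 7) and on the difference between highest and lowest mean (above 1.2), 9 of 10 passed, against 21% of all probe sets. Plin2 was the exception, with a difference of 1.04 between its highest and lowest means. No filter on low values was applied before the test. The highest mean was above 7 for all 10 genes, nearest to that threshold for Pparg (7.24) and Pdgfd (7.36).

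From E12 to Adult, 9 members rose and Pdgfc alone among them fell. Of all probe sets, 60% were called over this contrast, 28.7% higher and 31.3% lower. The median difference was 1.87 over the members and 0.02 over all probe sets.

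The PDGF ligand genes did not follow a common course. Pdgfa rose mainly before birth, Pdgfb and Pdgfd rose both before and after birth, and Pdgfc fell through the late embryo and birth. For Pdgfb the rises were 1.78 (SE 0.11, adjusted p = 1.12e-08) from E12 to E18 and 0.71 (SE 0.11, adjusted p = 0.000304) from P2 to Adult.

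Pdgfa, which encodes the PDGF-A chain, was at 8.23 and 8.32 at E12, 8.65 and 8.67 at E14, 9.25 and 9.05 at E16, 10.04 and 9.98 at E18, 10.11 and 10.00 at P2, 9.86 and 10.09 at P10, and 10.31 and 10.23 in Adult. All arrays from E18 on lay above all arrays up to E16. It rose by 0.49 (SE 0.10, adjusted p = 0.0058) between E14 and E16 and by 0.86 (SE 0.10, adjusted p = 1.74e-05) between E16 and E18. Thereafter no step passed the test, with differences between -0.07 and 0.29. The levels of Adult, P2, E18 and P10 did not differ from the next in order, nor did those of E14 and E12. The rise from E12 to Adult was 1.99 (SE 0.10, adjusted p = 1.18e-09), or 3.98-fold. The E16 step missed the threshold without E16 replicate 1 (0.39, adjusted p = 0.0783), and with the other Pdgfa probe set (0.33, adjusted p = 0.055), which in turn rose from E12 to E14 (0.67, adjusted p = 0.00447). Without P10 replicate 2 the step from P10 to Adult passed (0.40, adjusted p = 0.0283). With P10 replicate 1 or P10 replicate 2 left out, the step from E12 to E14 passed as well, at an adjusted p = 0.0493.

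Pdgfb, which encodes the PDGF-B chain, was at 7.79 and 7.50 at E12, 8.21 and 8.31 at E14, 8.48 and 8.52 at E16, 9.54 and 9.31 at E18, 9.70 and 9.75 at P2, 10.13 and 10.23 at P10, and 10.40 and 10.46 in Adult. Each time point lay above the one before it with no overlap between arrays. The rise from E12 to Adult of 2.79 (SE 0.11, adjusted p = 7.7e-11), or 6.89-fold, was the largest among the ligands. Of its steps, that from E16 to E18 measured 0.93 (SE 0.11, adjusted p = 1.47e-05), that from E12 to E14 0.61 (SE 0.11, adjusted p = 0.00781) and that from P2 to P10 0.45 (SE 0.11, adjusted p = 0.0251). Neighbours in the order that did not differ were Adult and P10, P2 and E18, and E16 and E14. With single arrays left out, both smaller steps kept their direction, at 0.47 to 0.76 for E14 and 0.40 to 0.50 for P10. Their calls were not kept. The E14 step missed the threshold without E12 replicate 2 (adjusted p = 0.094) or E14 replicate 2 (adjusted p = 0.106). The P10 step missed it without P2 replicate 1 (adjusted p = 0.176), P2 replicate 2 (adjusted p = 0.106) or P10 replicate 2 (adjusted p = 0.147). With the other Pdgfb probe set the E14 step was 0.48 (adjusted p = 0.165) and the P10 step 0.40 (adjusted p = 0.199). In that probe set the arrays of E14 and E16 overlapped, as did those of E18 and P2.

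Pdgfc, whose product is secreted with a CUB domain that must be cleaved off before it binds a receptor, was at 9.30 and 9.66 at E12, 9.41 and 9.17 at E14, 8.21 and 8.28 at E16, 7.14 and 7.01 at E18, 6.12 and 6.17 at P2, 5.30 and 5.90 at P10, and 5.99 and 6.01 in Adult. The embryonic arrays lay above all postnatal ones. The gene fell by 1.05 (SE 0.17, adjusted p = 0.000851) by E16, by 1.17 (SE 0.17, adjusted p = 7.01e-05) by E18 and by 0.93 (SE 0.17, adjusted p = 0.00198) by P2. Adult was 3.48 below E12 (SE 0.17, adjusted p = 4.64e-10), an 11.2-fold difference. E12 and E14 did not differ, nor did P2 and Adult or Adult and P10. The P10 replicates were 0.60 apart. Without P10 replicate 2 the gene also fell by 0.84 from P2 to P10 (adjusted p = 0.0102) and rose by 0.70 from P10 to Adult (adjusted p = 0.00563).

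Pdgfd, whose product is activated in a like manner and binds PDGFRβ, was at 5.21 and 5.39 at E12, 5.67 and 5.59 at E14, 5.67 and 5.67 at E16, 5.94 and 6.06 at E18, 6.82 and 6.50 at P2, 7.20 and 7.51 at P10, and 7.14 and 7.24 in Adult. Every postnatal array lay above every embryonic one. Before birth it had risen by 0.70 (SE 0.13, adjusted p = 0.000343) at E18 relative to E12, with no single step between neighbouring time points past the threshold. It rose by 0.66 (SE 0.13, adjusted p = 0.00301) between E18 and P2 and by 0.69 (SE 0.13, adjusted p = 0.00513) between P2 and P10. P10 and Adult did not differ, and neither did E18 and E16, E16 and E14, or E14 and E12. The P10 step missed the threshold without P2 replicate 2 (adjusted p = 0.07) or P10 replicate 2 (adjusted p = 0.0614). It was 0.29 (adjusted p = 0.362) with the Pdgfd probe set next in level, which otherwise rose by 2.49 from E12 to Adult. Without any 1 of the P2 and P10 arrays the step from E16 to E18, of 0.33, passed the threshold. The remaining Pdgfd probe set stayed between 3.41 and 4.01 on all arrays and had an adjusted p = 0.402 in the F test.

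**Figure D1:**
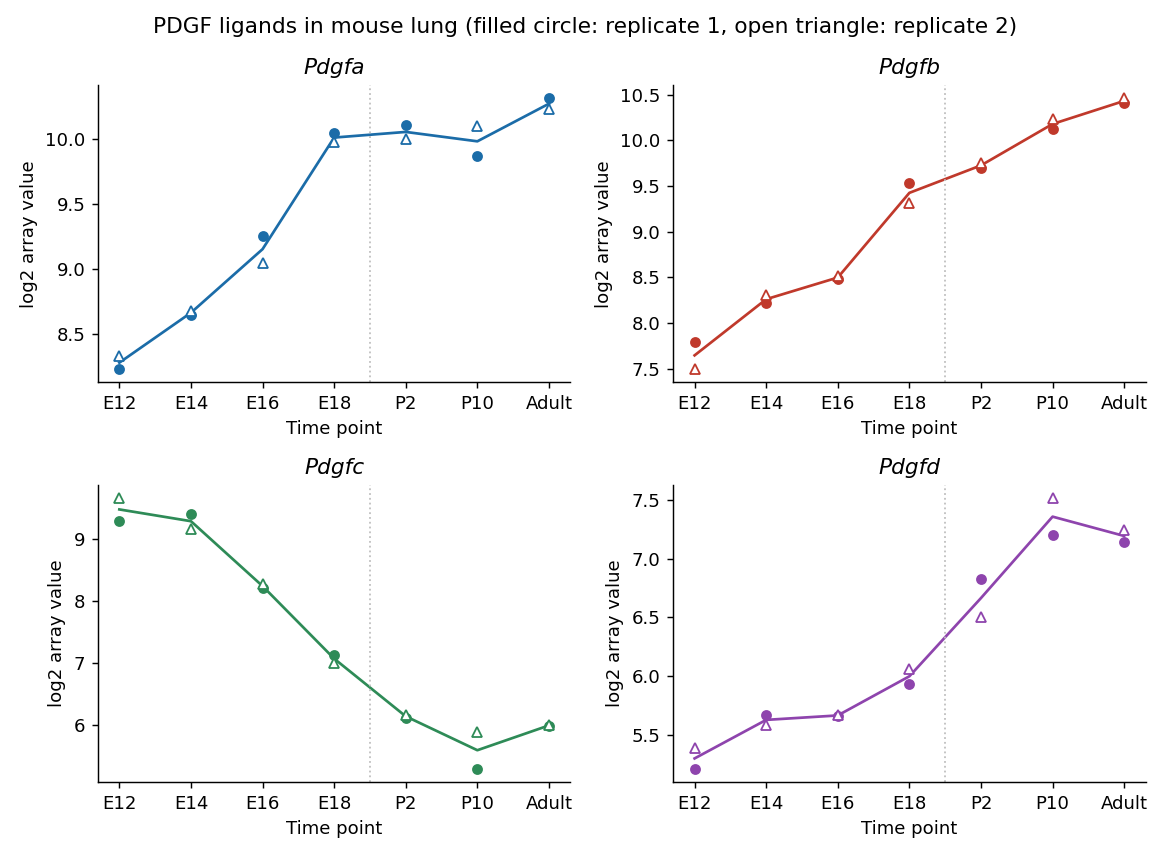
Log2 array values (vertical axis) of the 4 PDGF ligand genes at the 7 time points (horizontal axis, evenly spaced in order of age). Filled circles and open triangles are replicates 1 and 2, lines join the means, and the dotted line marks birth. Pdgfc descends from a mean of 9.48 at E12 while the other ligands ascend.

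The receptor genes did not follow a common course either. Pdgfra fell sharply between E18 and P2 and rose again at P10 and in Adult, whereas Pdgfrb did not pass the test between E18 and P2, reached its highest mean at P10 and fell by Adult.

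Pdgfra, the receptor for PDGF-A and PDGF-C and a marker of lung fibroblasts, was at 11.26 and 11.16 at E12, 11.29 and 11.28 at E14, 11.45 and 11.57 at E16, 12.17 and 12.14 at E18, 10.61 and 10.81 at P2, 11.55 and 11.52 at P10, and 12.16 and 12.15 in Adult. The P2 arrays were the lowest of all 14, and those of E18 and Adult the highest. Between E18 and P2 the gene fell by 1.44 on the log2 scale (SE 0.09, adjusted p = 4.22e-07), to a level 2.72-fold lower and also 0.50 below E12 (adjusted p = 0.000375). It then rose by 0.82 (SE 0.09, adjusted p = 0.000147) to P10 and by 0.63 (SE 0.09, adjusted p = 0.000176) to Adult. Adult and E18 did not differ (0.01, SE 0.09, adjusted p = 0.968), nor did P10, E16, E14 and E12 from the next in order.

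The fall at P2 was seen with each of the 3 Pdgfra probe sets, at -1.44, -0.91 (adjusted p = 0.00117) and -0.84 (adjusted p = 0.000303). So was the rise from P10 to Adult, at 0.63, 0.51 (adjusted p = 0.0246) and 0.80 (adjusted p = 0.000169). The rise from E16 to E18 of 0.64 (SE 0.09, adjusted p = 7.18e-05) was not, since the other probe sets gave -0.06 (adjusted p = 0.806) and -0.03 (adjusted p = 0.886). The step to P10 was 0.49 (adjusted p = 0.0786) with the probe set next in level and 1.08 (adjusted p = 0.000116) with the remaining one. The probe sets also differed over the whole course. From E12 to Adult they rose by 0.95 (SE 0.09, adjusted p = 6.55e-07) and 2.16 (SE 0.12, adjusted p = 1.69e-09), and the probe set next in level gave 0.21 (SE 0.15, adjusted p = 0.259). The order of levels was not shared either. The probe set next in level had means of 8.86 at E12, 8.99 at E18, 8.07 at P2 and 9.07 in Adult. With the remaining one P2 lay above E12, and Adult above E18, at means of 6.33 at E12, 7.45 at E18, 6.61 at P2 and 8.48 in Adult.

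Pdgfrb, the receptor of pericytes and vascular smooth muscle, was at 10.29 and 10.27 at E12, 10.56 and 10.65 at E14, 10.04 and 10.20 at E16, 10.92 and 10.78 at E18, 10.86 and 10.92 at P2, 11.64 and 12.11 at P10, and 11.06 and 11.17 in Adult. The P10 arrays stood above all others. It rose by 0.73 (SE 0.13, adjusted p = 0.000474) between E16 and E18 and by 0.99 (SE 0.13, adjusted p = 0.000569) between P2 and P10, and fell by 0.76 (SE 0.13, adjusted p = 0.000626) between P10 and Adult. Apart from P10, no time point differed from the next in the order of levels, which ran from Adult through P2, E18, E14 and E12 down to E16. The fall from E14 to E16 of 0.48 (SE 0.13, adjusted p = 0.0215) missed the threshold without E14 replicate 1 (adjusted p = 0.073), E14 replicate 2 (adjusted p = 0.119) or E16 replicate 1 (adjusted p = 0.165).

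Between P10 and Adult the 95% intervals of the differences were 0.43 to 0.82 for Pdgfra and -1.04 to -0.48 for Pdgfrb. The difference between the receptors was not itself tested. In Adult against P10, 13.5% of all probe sets were lower and 12.8% higher. Of the 8 pericyte markers, 3 were lower, 1 higher and 4 not called in this step. Rgs5, a regulator of G protein signalling, was among the lower, at 11.12 ± 0.33 (SD, n = 2) at P10 and 9.53 ± 0.75 in Adult, and Des, which encodes desmin, was the higher, with means of 8.81 and 9.45. The mean over the 8 pericyte markers was between 9.05 and 9.18 on the P10 arrays and between 8.78 and 8.92 on the Adult arrays. Over the 9 markers of myofibroblasts and smooth muscle the means were 10.99 and 11.15 at P10 and 10.31 and 9.72 in Adult, and Eln, the elastin gene, was at 13.66 at P10 and 10.67 in Adult. Over the 12 markers of lung fibroblasts, 8 were lower and 3 higher in Adult than at P10. What these cells contributed to the receptor values was not tested.

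**Figure D2:**
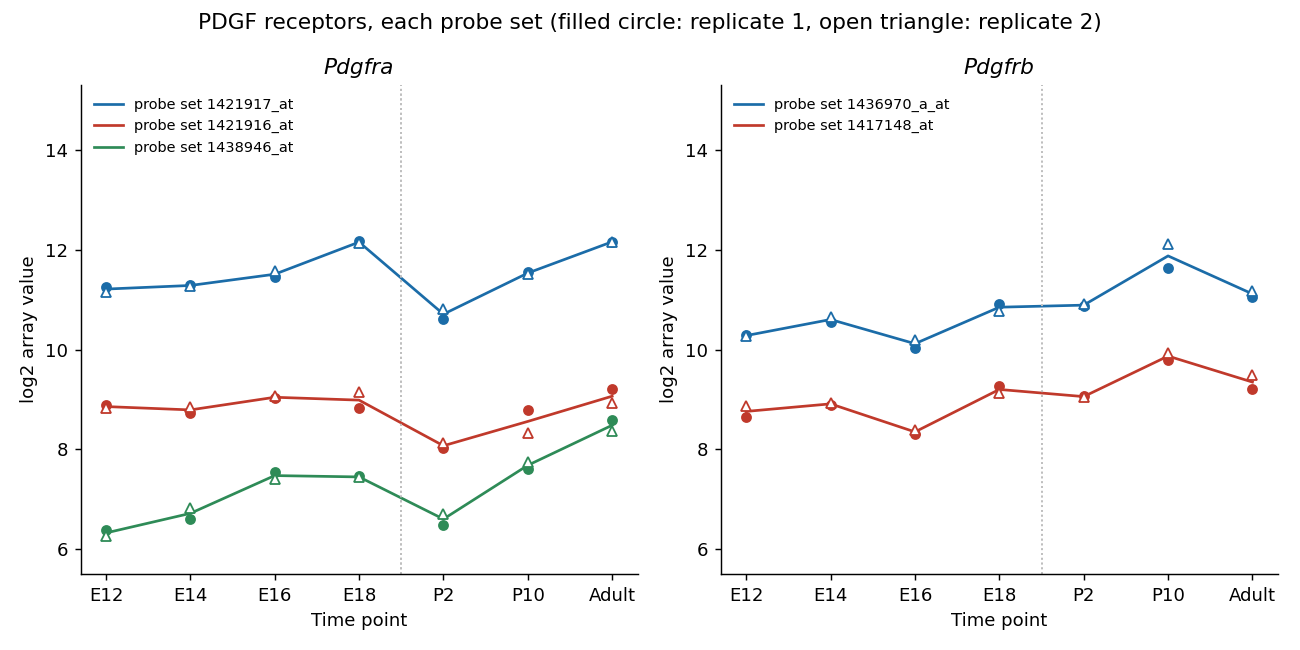
Log2 array values (vertical axis) of each probe set of Pdgfra and Pdgfrb at the 7 time points (horizontal axis). Filled circles and open triangles are replicates 1 and 2, and lines join the means. All 3 Pdgfra probe sets dip at P2, and both Pdgfrb probe sets are highest at P10.

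The lipofibroblast genes rose before birth, but their first rises were not all in the same step. Pparg, Plin2 and Fabp4 rose between E14 and E16, whereas Lpl stayed level until E16. Between E16 and E18 Lpl rose, as did Fabp4 again and, by less, Pparg.

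Pparg was at 5.12 and 5.44 at E12, 5.67 and 5.42 at E14, 6.46 and 6.65 at E16, 6.97 and 6.92 at E18, 6.93 and 6.88 at P2, 6.71 and 6.48 at P10, and 7.24 and 7.24 in Adult. The E12 and E14 arrays lay below all later ones. The gene rose by 1.01 (SE 0.13, adjusted p = 0.000132) between E14 and E16, by 0.39 (SE 0.13, adjusted p = 0.0229) between E16 and E18 and by 0.64 (SE 0.13, adjusted p = 0.00168) between P10 and Adult. From E12 to Adult the rise was 1.96 (SE 0.13, adjusted p = 9.07e-09). In the order Adult, E18, P2, P10, E16, E14, E12 the only neighbours that differed were E16 and E14. The E18 step missed the threshold without E16 replicate 1 (adjusted p = 0.167), E18 replicate 1 (adjusted p = 0.103) or E18 replicate 2 (adjusted p = 0.0602). Pparg had a single probe set, so its transcripts from different start sites were not told apart.

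Plin2, which encodes the main coat protein of lipid droplets outside fat, was at 10.75 and 10.76 at E12, 10.83 and 10.87 at E14, 11.50 and 11.49 at E16, 11.65 and 11.75 at E18, 11.78 and 11.81 at P2, 11.37 and 11.42 at P10, and 11.29 and 11.40 in Adult. Its highest arrays were those of P2. It rose by 0.65 (SE 0.08, adjusted p = 0.000193) between E14 and E16, and fell by 0.40 (SE 0.08, adjusted p = 0.0113) between P2 and P10. Adult was 0.36 below E18 (adjusted p = 0.00466) and 0.59 above E12 (SE 0.08, adjusted p = 2.98e-05). In the order P2, E18, E16, P10, Adult, E14, E12 the only neighbours that differed were Adult and E14. The fall after P2 missed the threshold without P2 replicate 1 (adjusted p = 0.0813) or P2 replicate 2 (adjusted p = 0.0852).

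Lpl, the lipase that frees fatty acids from circulating lipoproteins, was at 10.53 and 10.64 at E12, 10.56 and 10.54 at E14, 10.65 and 10.32 at E16, 11.67 and 11.61 at E18, 11.47 and 11.43 at P2, 11.85 and 11.70 at P10, and 12.25 and 12.62 in Adult. The first 3 time points overlapped, and every later array lay above them. Lpl rose by 1.16 (SE 0.13, adjusted p = 7.96e-06) between E16 and E18 and by 0.67 (SE 0.13, adjusted p = 0.00158) between P10 and Adult. P10, E18 and P2 did not differ from the next in order, nor did E12, E14 and E16. The other Lpl probe set rose in the same steps, by 1.04 (adjusted p = 6.04e-05) and 0.57 (adjusted p = 0.00996).

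Fabp4, a fatty acid carrier of fat cells, capillary endothelium and macrophages, was at 4.21 and 4.60 at E12, 4.80 and 4.73 at E14, 7.92 and 5.91 at E16, 9.19 and 8.73 at E18, 7.80 and 7.64 at P2, 6.92 and 7.03 at P10, and 9.34 and 8.96 in Adult. Its replicates were 2.00 apart at E16 and at most 0.46 apart at the other time points. It rose by 2.15 (SE 0.43, adjusted p = 0.00362) between E14 and E16, by 2.04 (SE 0.43, adjusted p = 0.00156) between E16 and E18 and by 2.18 (SE 0.43, adjusted p = 0.00166) between P10 and Adult. With a rise of 4.75 (SE 0.43, adjusted p = 2.93e-07), or 26.9-fold, from E12 to Adult it moved most among the members. Its E12 and E14 values lay below the lower quartile of all values, so the size of this rise is uncertain. In the order Adult, E18, P2, P10, E16, E14, E12 the only neighbours that differed were E16 and E14.

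The spread of Fabp4 at E16 entered each of its standard errors. Without E16 replicate 1, in which heart markers were high, the E16 step was 1.15 (adjusted p = 0.00482) and the E18 step 3.04 (adjusted p = 3.23e-07). Without E16 replicate 2 they were 3.15 (adjusted p = 1.49e-06) and 1.04 (adjusted p = 0.00182). With E16 replicate 1 or E16 replicate 2 left out, Fabp4 also fell by 1.24 from E18 to P2 (adjusted p = 0.00039) and by 0.75 from P2 to P10 (adjusted p = 0.0202), steps that missed the threshold with all arrays (adjusted p = 0.0694 and 0.385). The part of heart tissue in the E16 values was not tested. Of the other 3 Fabp4 probe sets, the brightest ran in parallel, with 4.46 (adjusted p = 4.84e-07) between E12 and Adult, and the dim ones gave 1.30 (adjusted p = 1.12e-07) and 0.45 (adjusted p = 0.00926).

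**Figure D3:**
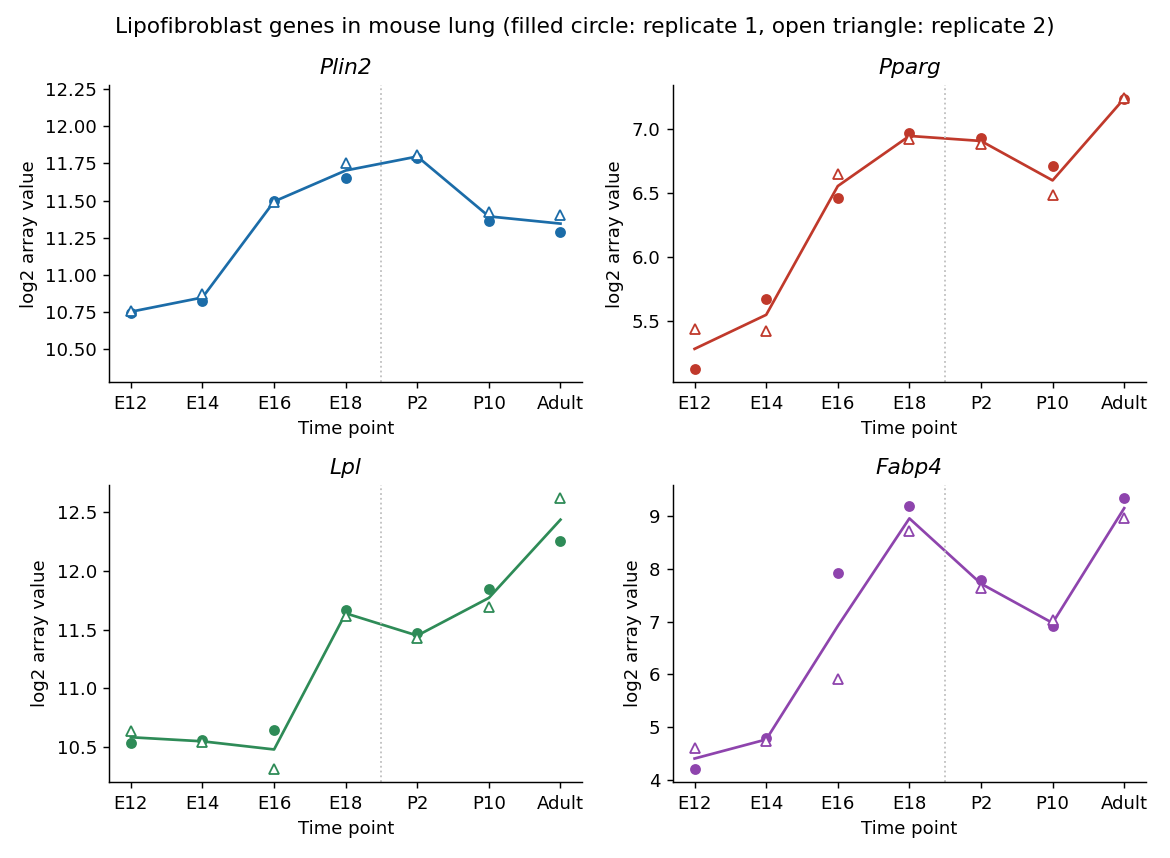
Log2 array values (vertical axis, scaled to each gene) of Plin2, Pparg, Lpl and Fabp4 at the 7 time points (horizontal axis). Filled circles and open triangles are replicates 1 and 2, and lines join the means. Plin2, Pparg and Fabp4 step up at E16, Lpl and again Fabp4 step up at E18, and the E16 replicates of Fabp4 lie 2.00 apart.

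Markers of other cells that use these lipid genes also changed over the time course, though not all in the same steps. Of the 7 measured adipocyte markers, 5 were higher and 0 lower in Adult than at P10, where 12.8% of all probe sets were higher. The adiponectin gene Adipoq was between 3.36 and 3.76 on all 12 earlier arrays and at 7.72 and 6.74 in Adult, a rise of 3.57 (SE 0.22, adjusted p = 8.48e-08). Lep and Ucp1, defining genes of white and brown fat, stayed low, with Adult means of 4.32 and 4.60. The mean over the 7 adipocyte markers was between 4.68 and 5.11 before Adult and at 6.63 and 6.18 in Adult. Fabp4 was higher in the Adult replicate with more Adipoq (9.34 against 8.96), and Lpl was lower in it (12.25 against 12.62). Up to E18, Pparg and Fabp4 had risen. Adipoq remained below 3.84, the value under which 10% of all values lay. Between E16 and E18, 0 of the 7 adipocyte markers passed the test, where 39.8% of all probe sets were called. Of the 7, 3 had a highest mean above 7, so low signals limited what this list could show before Adult. Between E14 and E16, when Pparg, Plin2 and Fabp4 rose, 1 of the 7 was higher, against 7.23% of all probe sets. It was Cidea, a lipid droplet protein gene of fat cells, with a rise of 0.55 (SE 0.13, adjusted p = 0.0125).

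At E18, 20.5% of all probe sets were higher and 19.3% lower than at E16. In Adult, 12.8% were higher and 13.5% lower than at P10. Of the 10 measured macrophage markers, 5 at E18 and 8 in Adult were higher in these steps, with 0 lower in both. Their mean was 5.92 and 5.99 at E12, 7.30 and 7.52 at E18, and 9.24 and 9.40 in Adult. Between E16 and E18 the median difference of these markers was 0.36, and 5 of the 10 were not called. The largest rises in that step were those of Chil3 (4.76 to 9.66) and Lyz2 (10.50 to 13.66). Siglecf, a surface marker of alveolar macrophages, was at 3.45 at E16, 3.54 at E18 and 6.77 in Adult. The mean over the 12 endothelial markers went from 8.83 and 8.82 at E12 to 11.40 and 11.53 in Adult, with 9 higher and 1 lower between E16 and E18. The mean over the 5 type II cell markers was 8.08 and 8.03 at E12, 11.10 and 10.82 at E16, and 13.39 and 13.37 at E18. Between E14 and E16, 5 of these 5 were higher, with a median of 2.73. In that step 4 of 12 endothelial, 2 of 10 macrophage, 4 of 8 pericyte and 7 of 8 heart markers were higher, with 0 lower in each. Of the 12 lung fibroblast markers, 5 were higher and 2 lower. Of all probe sets, 7.23% were higher and 9.72% lower. What each cell type contributed to Pparg, Plin2, Lpl and Fabp4 was not tested.

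**Figure D4:**
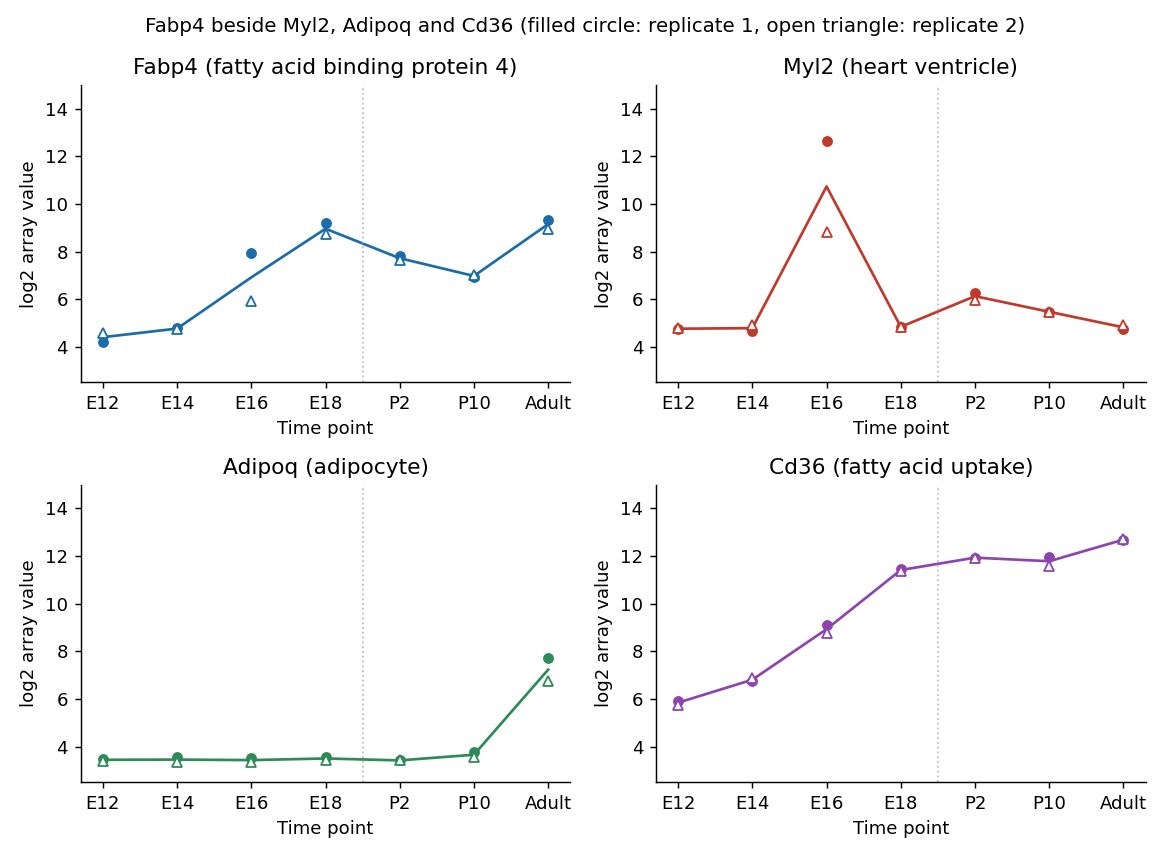
Log2 array values (vertical axis) of Fabp4, the heart gene Myl2, the adipocyte gene Adipoq and the fatty acid receptor gene Cd36 at the 7 time points (horizontal axis). Filled circles and open triangles are replicates 1 and 2, and lines join the means. Myl2 stands out at E16 (12.63 and 8.84) and Adipoq in Adult (7.72 and 6.74).

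Over the step to E14, 1 member was called higher (Pdgfb) and 0 lower, where 3.34% of all probe sets were called, 2.27% higher and 1.07% lower. At E16, 4 members were higher and 2 lower than at E14, against 16.9% of all probe sets, 7.23% higher and 9.72% lower. At E18, 7 were higher and 1 lower than at E16, against 39.8%, 20.5% higher and 19.3% lower. The steps after birth followed. At P2, 1 was higher and 2 lower than at E18, against 15%, 6.87% higher and 8.17% lower. At P10, 4 were higher and 1 lower than at P2, against 6.88%, 3.47% higher and 3.41% lower. In Adult, 4 were higher and 1 lower than at P10, against 26.3%, 12.8% higher and 13.5% lower. The count for P10 went from 2 to 6 when single arrays were left out, with 3 without P2 replicate 1 and 2 without P2 replicate 2. The count for E14 was 0 without E12 replicate 2 or E14 replicate 2 and 2 without P10 replicate 1 or P10 replicate 2. The share of members called stood above the share of all probe sets in each of these steps, and with 10 genes chosen for their known roles this is a description of the set.

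**Figure D5:**
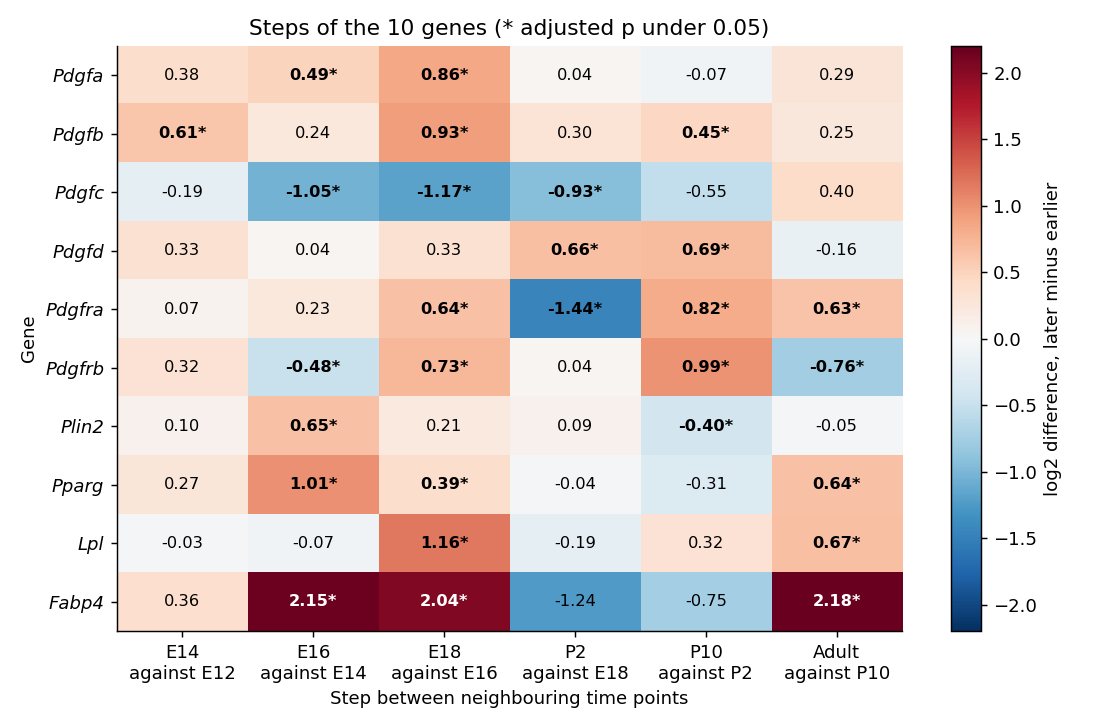
Log2 differences, later minus earlier (colour and printed number), of the 10 genes (rows) over the 6 steps between neighbouring time points (columns), with bold type and an asterisk where the adjusted p was under 0.05. The columns E18 against E16 and E16 against E14 hold the most called steps (8 and 6), and Pdgfra at P2 (-1.44) is the strongest fall.

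Across the 7 time-point means Pparg and Fabp4 had a Pearson r of 0.97, Pdgfa and Pdgfb 0.96, and Pdgfb and Pdgfc -0.97. The correlations of Pdgfra with the other members lay between -0.24 and 0.58. These values are descriptions over 7 points that share the trend with age. Among 4755 other genes (4756 for Plin2) that had a highest mean above 7 and a range above 1.2, the closest courses over the 7 means were those of Galnt18, Lyz2 and Pdpn to Pdgfa (r from 0.9986 to 0.9992), of Adam15, Man1c1 and Nfatc1 to Pdgfb (0.9978 to 0.9986) and of Paxip1, Socs6 and Ruvbl2 to Pdgfc (0.9967 to 0.9988). For Pdgfd they were Adcy8, Antxr2 and Adcy7 (0.9917 to 0.9949), and for Pdgfrb Adam23, Adgrl2 and Nes (0.9659 to 0.9744). For Pdgfra the closest were Slc6a2, Abca1 and P4ha2, at only 0.8545 to 0.8662. For the lipid genes they were Podxl, Fryl and Foxj2 to Lpl (0.9975 to 0.9994), Pcgf5, Dnaic2 and Igsf5 to Pparg (0.9953 to 0.9985), Rsph4a, Drc1 and Selenbp1 to Fabp4 (0.995 to 0.9971), and Ckm, Tmem139 and Veph1 to Plin2 (0.9545 to 0.9631).

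Other genes of PDGF release and reception were read in the same fit. Of 6 genes that process the ligands or act as co-receptors, 4 were higher and 1 lower in Adult than at E12, where 60% of all probe sets were called, with a median of 0.80 against 0.08 over all genes. Nrp1, a co-receptor of vessels and mesenchyme, rose by 2.19 (SE 0.10, adjusted p = 3.94e-10), Lrp1, an endocytic receptor that binds PDGFRβ, by 1.53 (SE 0.20, adjusted p = 1.08e-05), and Furin, a protease that cuts the PDGF-A and PDGF-B precursors, by 0.97 (SE 0.15, adjusted p = 6.35e-05). Cspg4, the pericyte proteoglycan NG2, rose by 0.64 (SE 0.13, adjusted p = 0.000501).

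Plat, which encodes the tissue plasminogen activator that cleaves PDGF-C, moved in both directions. It fell by 0.67 (SE 0.12, adjusted p = 0.007) to E14 and by 1.15 (SE 0.12, adjusted p = 2.84e-05) to E16, rose by 1.47 (SE 0.12, adjusted p = 3.23e-06) to P2 and by 1.60 (SE 0.12, adjusted p = 5.57e-06) to P10, and lastly fell by 1.61 (SE 0.12, adjusted p = 4.17e-07) to Adult. Plau, encoding the urokinase that cleaves PDGF-D, stayed between 4.91 and 5.14 in its means and did not pass the F test (adjusted p = 0.279).

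Of the 26 measured genes of receptor signalling, 13 were higher and 5 lower in Adult than at E12, with a median of 0.18 against 0.08 over all genes. This is 18 of 26, where 60% of all probe sets were called. At E18, 11 were higher and 0 lower than at E16, where 39.8% of all probe sets were called in either direction. The largest rises were those of Stat3, a transcription factor, at 2.57 (SE 0.12, adjusted p = 3.9e-10), of Pik3cb, a catalytic subunit of PI3-kinase, at 2.55 (SE 0.11, adjusted p = 1.42e-10), and of its regulatory subunit gene Pik3r1, at 1.34 (SE 0.12, adjusted p = 4.08e-07). The largest falls were small, at -0.51 for Srf, which encodes serum response factor (adjusted p = 0.000466), -0.46 for Map2k2 (adjusted p = 0.00192) and -0.31 for the adaptor gene Nck2 (adjusted p = 0.0316). Crk and Sos1 had the highest p in the F test (adjusted p = 0.55 and 0.0669).

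Of the 17 measured genes of the lipid droplet, 14 were higher and 0 lower in Adult than at E12, with a median of 1.25 against 0.08 over all genes, and 28.7% of all probe sets were higher. G0s2, which inhibits the lipase encoded by Pnpla2, rose by 2.97 (SE 0.19, adjusted p = 5.76e-07) between E14 and E16, the step of Pparg and Plin2. Pnpla2 itself rose by 1.19 (SE 0.12, adjusted p = 4.57e-06) between E16 and E18, the step of Lpl. Hilpda, another inhibitor of that lipase, rose by 2.41 (SE 0.12, adjusted p = 9.43e-10) between E12 and Adult. Dgat1, an enzyme of triglyceride synthesis, did not pass the F test (adjusted p = 0.738), and neither did Pnpla3 (adjusted p = 0.0655).

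Of the 14 measured genes of fatty acid uptake and lipoprotein lipolysis, 8 were higher and 1 lower in Adult than at E12, where 60% of all probe sets were called, and 9 were higher and 2 lower at E18 than at E16, where 39.8% were called. Cd36, a fatty acid receptor of endothelium and macrophages, was at 5.93 and 5.76 at E12, 9.10 and 8.76 at E16, 11.47 and 11.35 at E18, and 12.66 and 12.72 in Adult, a rise of 6.85 (SE 0.14, adjusted p = 4.39e-13). Gpihbp1, which anchors the Lpl enzyme on capillaries, rose by 1.16 (SE 0.13, adjusted p = 5.21e-05) to E16, 1.68 (SE 0.13, adjusted p = 2.43e-07) to E18, 0.85 (SE 0.13, adjusted p = 0.00151) between P2 and P10 and 0.68 (SE 0.13, adjusted p = 0.0013) to Adult. Lipg, endothelial lipase, rose by 3.12 (SE 0.12, adjusted p = 7.06e-11) over the whole course. Fabp7, a fatty acid carrier best known in brain, fell by 2.40 (SE 0.12, adjusted p = 1.05e-09). Lmf1, needed for the folding of Lpl, did not pass the F test (adjusted p = 0.141), and Slc27a4, a fatty acid transporter, passed it (adjusted p = 0.0113) with an Adult against E12 difference of 0.24 (adjusted p = 0.0762).

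Of 19 measured PPAR partners and regulators of fat cell formation, 11 were higher and 4 lower in Adult than at E12, where 60% of all probe sets were called, with a median of 0.63. Klf4, a zinc finger transcription factor, rose by 4.14 (SE 0.13, adjusted p = 1.05e-11). Cebpa, the partner of PPARγ in fat cells that is also expressed in type II cells, rose by 3.73 (SE 0.14, adjusted p = 4.37e-11), and the leptin receptor gene Lepr by 2.94 (SE 0.12, adjusted p = 7.25e-11).

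Pth1r, the receptor on lipofibroblasts for parathyroid hormone-related protein, went against the lipid genes. It was at 9.91 and 9.87 at E12, 8.06 and 8.24 at E18, and 6.73 and 6.44 in Adult, with falls of 0.46 (SE 0.12, adjusted p = 0.0162) to E16, 1.28 (SE 0.12, adjusted p = 1.38e-06) to E18 and 1.97 (SE 0.12, adjusted p = 6.99e-08) between P10 and Adult. Zfp423, a transcription factor of fat cell precursors, fell by 2.70 (SE 0.15, adjusted p = 2.09e-09) over the course, and Ppargc1a, a coactivator of PPARγ, fell by 1.02 (SE 0.12, adjusted p = 3.79e-06). Ppargc1b did not pass the F test (adjusted p = 0.114), and Rxra, the dimer partner of PPARγ, passed it (adjusted p = 0.012) with an Adult against E12 difference of 0.21 (adjusted p = 0.0571).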

How the data were processed

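Whole-lung RNA was hybridized to 14 arrays (7 time points, 2 arrays each), and groups and replicate numbers were taken from the sample titles. The log2 values were used as deposited by the authors. In the study's methods they came from Robust Multichip Average in Partek, whereas the submitters' processing notes list Partek 6.4 and GCRMA, so which of these gave the values is not settled. All probe sets but 64 Affymetrix controls entered the tests (45037), and 34945 of them had 1 symbol in the annotation, 932 more than 1 and 9160 no symbol. A linear model with a mean per time point was fitted in R 4.3.3 with limma 3.58.1 (residual df 7, prior df 6.04). The moderated F test, 21 pairwise contrasts and Benjamini-Hochberg adjustment covered all probe sets, and calls were made at an adjusted p under 0.05. The fit was tested on simulated data.

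The members and gene lists were chosen with earlier results of these data known. Of 188 listed genes, 17 without a probe set of a single symbol were not analysed here. From each list the text names the 3 genes that rose most and the 3 that fell most between E12 and Adult, among those that passed, and the 2 with the highest p in the F test. The 3 genes most alike each member were named by Pearson r over the time-point means. Alternatives were other probe sets, single arrays left out, a replicate block, quantile normalization, median centring, a filter on low values, an intensity trend, no moderation and fits of 2 time points. The number of arrays limits the precision.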

Additional observations from a re-analysis of the deposited data

How the results depend on the processing

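The F test count of 9 members was 7 with the mean of all probe sets of a gene, 7 with the probe set next in level, 10 with the adjusted p alone and 8 without the Adult arrays, and 9 under the other alternatives. The count of 9 higher in Adult than at E12 was 8 with the probe set next in level and otherwise 9, and that of 1 lower was 1 throughout. The fits without the E16 arrays or without the Adult arrays were chosen after seeing the data. Of 38 called differences of single members, 27 kept direction and call under every alternative run and 11 did not, and 11 of 32 others passed under some alternative. The count for E14 against E12 was 2 with the mean of all probe sets, 2 over probe sets with a highest mean above 7, 2 with an intensity trend and 0 without moderation. The count for P10 against P2 was 2 with the probe set next in level. Leaving out 1 array gave 0 to 2 for E14, 4 to 6 for E16, 7 to 9 for E18, 3 to 4 for P2, 2 to 6 for P10 and 5 to 7 for Adult against P10. The step of Pdgfra from E16 to E18 turned to -0.057 (adjusted p = 0.806) with the probe set next in level. Replicate numbers did not pair the arrays: replicate deviations of different time points correlated between -0.27 and 0.12, above 0.1 for 2 of 21 pairs. With the replicate block 38 of the 38 member calls were kept and 9463 probe sets were called in place of 9464. Array signals near the lower end, as for Fabp4 at E12, limit the size of a difference, and the cause of the other changes was not tested.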
